A study of Mus musculus with 12 samples.

Results

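The genes of 9 mouse enzymes that make building blocks for DNA were followed: Tyms, Rrm1, Rrm2, Rrm2b, Tk1, Shmt1, Shmt2, Mthfd2 and Phgdh. They were chosen by gene symbol, and all 9 were found among the 24091 genes of an RNA-seq table of mouse cerebellum and medulloblastoma. Medulloblastoma is a tumor of the cerebellum. The study asked which DNA lesions need BRCA2, a DNA repair protein, to keep this tumor from forming, using mice with Brca2 and Trp53 mutations.

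Poly(A) RNA from 12 samples was sequenced, 3 in each of 4 groups. The tumors came from mice GB344, GB359 and GB370, whose genotype was Brca2-mut;Trp53-mut, and the adjacent cerebella were non-tumor tissue of the same 3 mice. Control cerebella came from Brca2-mut;Trp53-WT mice (GB361, GB508 and GB512) and from Brca2-WT;Trp53-mut mice (GB517, GB519 and GB520). In the Brca2-mut mice, per the study's methods, Cre driven by the human GFAP promoter removes the floxed exons for the PALB2-binding region in the developing central nervous system, whereas the Trp53 allele is a knockout in every tissue. Every group thus carried at least one of the mutant alleles, and no group was wild type for both genes. The labels give no ages and do not say whether the Brca2-WT mice carried Cre; the study describes the controls as age-matched. Values for whole genes cannot show the deleted Brca2 exons, so they do not check the Brca2 labels, and the Trp53 labels were not checked.

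Values are TPM (transcript abundances scaled to a fixed library sum), which also allow for transcript length, so levels can be compared between genes. Read depth per sample is unknown, because TPM keep no depth. Fold changes are differences of log2(TPM + 1) with their standard error (SE), which understates the change of genes near 0. A gene was called higher or lower where its Benjamini-Hochberg adjusted p in limma was under 0.01 and its log2 fold change was at least 1 in size.

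A cell that replicates its DNA needs the 4 deoxynucleotides in balance. Ribonucleotide reductase makes them from ribonucleotides, thymidylate synthase and thymidine kinase supply the thymidine nucleotide, and thymidylate synthase takes its methyl group from a folate carrier. That carbon comes largely from serine, which serine hydroxymethyltransferases split into glycine and a folate-bound one-carbon unit. The granule cell progenitor of the cerebellum, which divides in early postnatal life, is the usual cell of origin of Sonic Hedgehog medulloblastoma, while the adult cerebellum is mostly postmitotic.

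In tumors, 7 of the 9 genes were called higher than in the 6 control cerebella and none was called lower, where 14.4% of the 16241 genes tested were called higher and 21.5% lower. On the log2 scale the 9 had a median change of 2.14, and all genes tested had one of -0.11. Rrm2b, the alternative small subunit of ribonucleotide reductase, and Phgdh, the first enzyme of serine synthesis, were not called. Each of the 9 separated the groups: for 8 the lowest tumor exceeded the highest control, and for Rrm2b the highest tumor fell short of the lowest control, against 28.3% and 35.7% of all genes. All 9 passed the filter on low values, which asks for 1 TPM in 3 samples, but Tk1 did so through the tumors alone. The 9 genes together made up 809 to 890.5 TPM in the tumors, 185 to 400.6 TPM in the adjacent cerebella and 167 to 220.4 TPM in the controls.

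**Figure D1:**
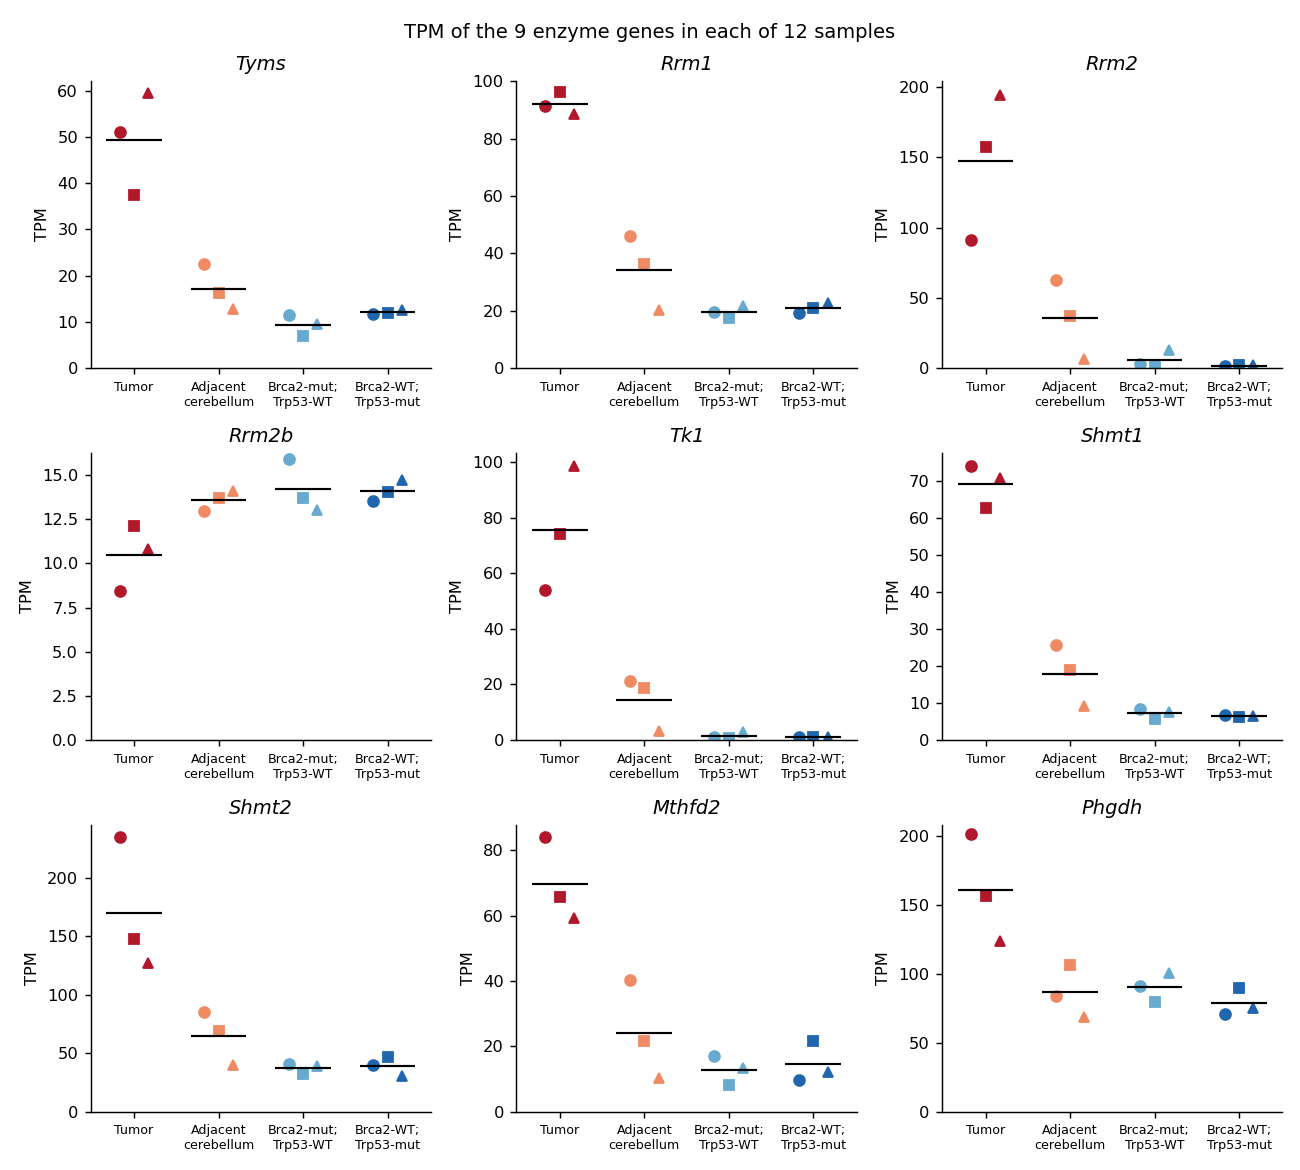
TPM (linear axis from 0, scale differing between panels) of the 9 genes in each of 12 samples; horizontal lines are means of 3 samples, and circles, squares and triangles are the mice in ascending number. Tumors lie above all other samples for 8 genes and below them for Rrm2b; the adjacent sample of GB370 (triangle) lies near the controls.

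The cell types in the samples differed widely. The summed level of 9 proliferation genes was 1390 to 1630 TPM in tumors and 108 to 175 TPM in controls, and all 9 were called higher in tumors, although 5 of them (Mki67, Top2a, Cdk1, Ccnb1 and Aurkb) passed the filter on low values through the tumors alone. The sum of 6 granule progenitor genes was 1725 to 1842 TPM in tumors and 41.2 to 45.5 TPM in controls, with Atoh1, the factor that defines these progenitors, at 0.212 TPM or less in every control; Atoh1 too passed that filter through the tumors alone. All 5 mature granule neuron genes (103 to 372 TPM in tumors, 2447 to 3151 TPM in controls) and all 5 Purkinje cell genes were called lower. The sum of 5 choroid plexus genes was 3960 to 5179 TPM in the Brca2-WT;Trp53-mut controls and 19.2 to 876 TPM in the other control genotype. In such bulk samples, fewer cells of a type and less RNA per cell cannot be told apart, and the part of cell composition in the results for the 9 genes was not tested.

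Ribonucleotide reductase is built from a large subunit, encoded by Rrm1, and a small subunit, encoded by Rrm2 in dividing cells or by Rrm2b, a p53 target that serves DNA repair and mitochondrial DNA in resting cells. On the GRCm38 (mm10) assembly, Rrm1 lies at chr7:102441695-102469771 on the plus strand, Rrm2 at chr12:24708254-24714146 on the plus strand and Rrm2b at chr15:37923952-37961119 on the minus strand.

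The 250 bases before the RefSeq start of transcription of Rrm1 and Rrm2 are shown because these 2 subunits were called together in tumors, and those of Mthfd2, the mitochondrial folate enzyme described later, for comparison. Capitals mark matches on either strand of CCAAT, the box read by the factor NF-Y, or of TTCCCGC, a core read by E2F factors in genes of the cell cycle. A CCAAT box on the opposite strand is printed as its complement, ATTGG. The sequences are from RefSeq on GRCm38.p6, on the strand of the gene, 5′ to 3′, and lie at chr7:102441445-102441694 (plus), chr12:24708004-24708253 (plus) and chr6:83317605-83317854 (minus).
Rrm1: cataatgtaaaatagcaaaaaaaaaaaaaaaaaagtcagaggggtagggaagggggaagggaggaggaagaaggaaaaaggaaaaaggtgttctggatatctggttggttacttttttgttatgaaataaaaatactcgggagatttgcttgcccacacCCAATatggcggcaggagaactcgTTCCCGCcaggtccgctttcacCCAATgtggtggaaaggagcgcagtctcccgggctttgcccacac
Rrm2: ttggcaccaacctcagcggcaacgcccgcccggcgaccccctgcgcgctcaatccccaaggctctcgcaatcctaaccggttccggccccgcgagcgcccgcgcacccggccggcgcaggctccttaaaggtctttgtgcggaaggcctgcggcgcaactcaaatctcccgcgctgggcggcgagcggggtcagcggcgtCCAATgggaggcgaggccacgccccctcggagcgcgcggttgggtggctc
Mthfd2: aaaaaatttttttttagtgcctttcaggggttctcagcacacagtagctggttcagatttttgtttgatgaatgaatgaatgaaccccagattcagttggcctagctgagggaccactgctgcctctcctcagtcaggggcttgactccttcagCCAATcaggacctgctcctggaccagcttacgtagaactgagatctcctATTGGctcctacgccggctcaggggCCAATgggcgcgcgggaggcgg
The Rrm1 window holds TTCCCGC at 61 to 67 bases before the start and CCAAT at 87 to 91 and 41 to 45. The Rrm2 window holds CCAAT at 46 to 50 bases before the start and neither of the E2F letters searched. Mthfd2 holds 3 CCAAT boxes, at 92 to 96, 43 to 47 and 18 to 22 bases. The Mthfd2 window precedes a RefSeq start that lies inside the gene span given later, not at the outer end of that span. In the Rrm2 window 13 bases, and in the Mthfd2 window 2, lie in GENCODE exons of the same gene.

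RefSeq windows were at hand for 8 of the 9 genes, Rrm2b being the exception. CCAAT was found in 5 of the 8 (Rrm1, Rrm2, Shmt1, Mthfd2 and Phgdh) and in 33.8% of all 32851 windows. TTCCCGC was found in Rrm1 alone (3.82% of windows). TTGGCGC, a second E2F core (1.97%), and TGATGNAA, the core of the element read by ATF4 (3.45%), were found in none of the 8. The motifs do not overlap one another in these windows, and a match is a description of letters.

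Rrm2 was at 90.9, 158 and 195 TPM in the tumors of GB344, GB359 and GB370. Its controls were at 2.78, 2.20 and 12.8 TPM in the Brca2-mut;Trp53-WT mice and at 1.45, 1.93 and 2.05 TPM in the Brca2-WT;Trp53-mut mice. The lowest tumor was thus several times the highest control, although one control, GB512, stood apart from the other 5. The log2 fold change was 5.18 ± 0.49 (SE, 3 tumors against 6 controls, limma adjusted p 4.92e-06), and the mean TPM differed by 38.2 times.

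Rrm1 was at 91.3, 96.1 and 88.6 TPM in tumors and at a lowest, median and highest of 17.5, 20.2 and 22.6 TPM in controls. Both groups were narrow and far apart. The log2 fold change was 2.14 ± 0.09 (adjusted p 2.72e-08).

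Rrm2b was at 8.46, 12.1 and 10.8 TPM in tumors and between 13.0 and 15.9 TPM in controls. It was the only one of the 9 whose tumor values lay under the controls, and the margin was small: the log2 fold change was -0.41 ± 0.12, under the size that a call needs, and the adjusted p of 0.0104 missed its limit narrowly. It was at 14.2 ± 1.5 TPM (SD, n = 3) in the Brca2-mut;Trp53-WT controls and 14.1 ± 0.592 TPM (SD, n = 3) in the Brca2-WT;Trp53-mut controls, so the controls with and without intact Trp53 overlapped.

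The balance of the small subunits therefore differed. In the tumors, Rrm2 was 10.7, 13.0 and 18.0 times Rrm2b, whereas in 5 of the 6 controls it was 0.107 to 0.175 times Rrm2b, and in control GB512 0.977 times. The difference of the log2 ratio was 5.59 between tumors (3.64 ± 0.39, SD, n = 3) and controls (-1.95 ± 0.95, SD, n = 6). The exact permutation test, 2-sided, gave p = 0.0238 (adjusted over 3 ratios 0.0238), the smallest that 3 samples against 6 can give. That result was fixed in advance, because every tumor was above every control for Rrm2 and below every control for Rrm2b. It restates those separations and adds no support to them. Rrm2 was 0.996, 1.64 and 2.19 times Rrm1 in tumors and 0.0753 to 0.590 times Rrm1 in controls, a difference of 3.04 on the log2 scale with the same exact p. Rrm2 RNA was thus under Rrm1 RNA in every control and about level with it or above it in tumors.

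Tyms encodes thymidylate synthase, which makes dTMP from dUMP and is the target of fluorouracil; the gene lies at chr5:30038546-30073645 on the minus strand. It was at 51.2, 37.5 and 59.5 TPM in tumors and at a lowest, median and highest of 6.995, 11.6 and 12.6 TPM in controls. The log2 fold change was 2.10 ± 0.19 (adjusted p 3.62e-06). A related sequence in the table, Tyms-ps, was at 0.470 to 1.08 TPM; how reads were divided between the pair was not tested.

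Tk1 encodes the cytosolic thymidine kinase of S phase, which salvages thymidine (chr11:117815519-117826087, minus strand). Its tumor values were 53.9, 74.3 and 98.5 TPM. Control values were 0.887, 0.679 and 2.87 TPM in Brca2-mut;Trp53-WT mice and 0.934, 0.954 and 1.03 TPM in Brca2-WT;Trp53-mut mice. As for Rrm2, tumor GB344 was the lowest tumor and control GB512 the highest control. The log2 fold change was 5.12 ± 0.27 (adjusted p 7.56e-08), and the mean TPM differed by 61.6 times.

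Shmt1 and Shmt2 encode the cytosolic and the mitochondrial serine hydroxymethyltransferase (chr11:60788897-60811265 and chr10:127517123-127522444, both on the minus strand). Shmt1 was at 74.1, 62.7 and 70.8 TPM in tumors and between 5.69 and 8.33 TPM in controls, a log2 fold change of 3.17 ± 0.12 (adjusted p 1.81e-08). Shmt2 was at 235, 147 and 127 TPM in tumors and between 30.9 and 46.5 TPM in controls, a log2 fold change of 2.08 ± 0.19 (adjusted p 3.67e-06). Both isozymes rose, and the cytosolic one rose by more.

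Shmt2 remained the more abundant isozyme in every sample, but its lead was smaller in tumors. The ratio of Shmt2 to Shmt1 was 3.17, 2.35 and 1.80 in the tumors and 4.74 to 7.47 in the 6 controls. The log2 ratio was lower in tumors by a difference of -1.09 (exact permutation p = 0.0238, adjusted 0.0238, again the smallest possible). In the adjacent cerebella the ratios were 3.32, 3.64 and 4.33, between the other groups.

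**Figure D2:**
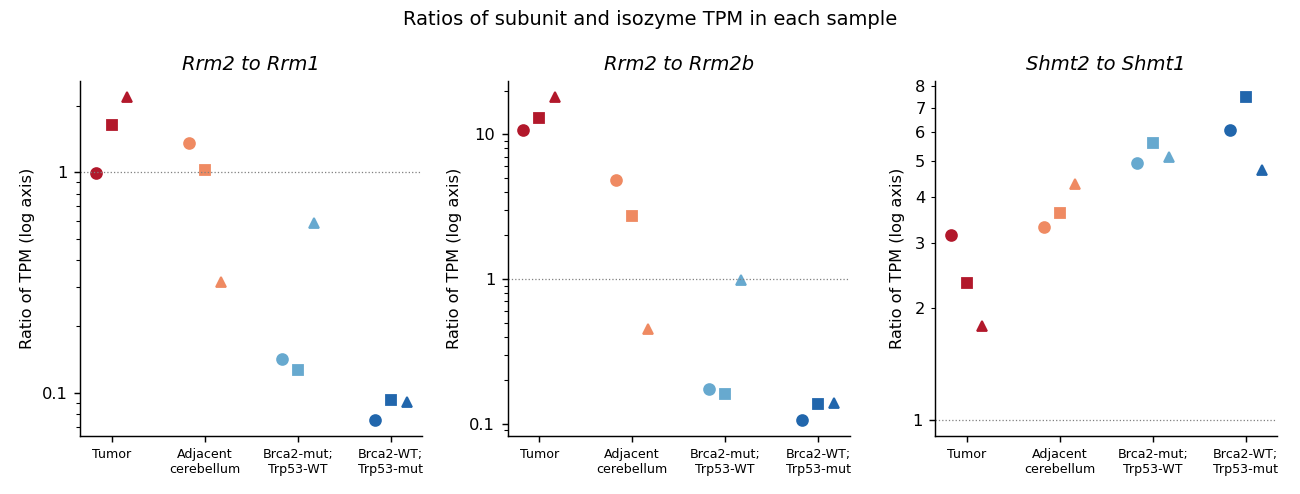
Ratio of TPM (log axes) of Rrm2 to Rrm1, Rrm2 to Rrm2b and Shmt2 to Shmt1 in each of 12 samples, 3 per group; dotted lines mark a ratio of 1. The Rrm2 to Rrm2b ratio is 10.7 to 18.0 in tumors and at most 0.977 in controls, while the Shmt2 to Shmt1 ratio is 1.80 to 3.17 in tumors and at least 4.74 in controls.

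Mthfd2 encodes a mitochondrial folate dehydrogenase and cyclohydrolase that carries the carbon released by Shmt2 towards formate (chr6:83305704-83326011, minus strand). It was at 84, 65.6 and 59.3 TPM in tumors. In the controls it ranged from 8.21 to 21.6 TPM, with the lowest value in GB508 and the highest in GB519. The log2 fold change was 2.32 ± 0.26 (adjusted p 1.74e-05).

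Phgdh encodes phosphoglycerate dehydrogenase, which diverts a glycolytic intermediate into serine (chr3:98313171-98339969, minus strand); in the brain it is chiefly a gene of astrocytes and neural progenitors. It was the most abundant of the 9 in controls, at a lowest, median and highest of 71.2, 84.7 and 100.4 TPM. In tumors it was at 202, 156 and 124 TPM, above every control. Its log2 fold change was 0.90 ± 0.15 with an adjusted p of 0.000385, so it missed the call by its size alone. It was called at 1.01 with median-of-ratios scaling, 1.05 with quantile normalization, 1.001 against the Brca2-WT;Trp53-mut controls alone and 1.07 without tumor GB370. Under the other alternatives that kept the same limits it was not called, and with 1 sample left out it ranged from 0.72 to 1.07. In the same comparison, the summed level of 6 astrocyte and Bergmann glia genes was 356 to 518 TPM in tumors and 2670 to 3698 TPM in controls, and 5 of the 6 were called lower.

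The order of the 9 by level also differed. Phgdh and Shmt2 led in every group, Shmt2 first in tumors (170 ± 57.3 TPM against 161 ± 38.9 TPM, SD, n = 3 each, which overlap) and Phgdh first elsewhere. Rrm2 was the third in tumors and the eighth in both control genotypes, and Tk1 the fifth in tumors and the last in both control genotypes. Rrm2b was the lowest of the 9 in every tumor. In adjacent cerebella Rrm2b (13.6 TPM) and Tk1 (14.4 ± 9.80 TPM, SD, n = 3) did not differ beyond their spread, and in that of GB370 Rrm2b was above Tyms, Mthfd2, Shmt1, Rrm2 and Tk1. At the mean of the 6 controls, Rrm2b (14.2 TPM) and Mthfd2 (13.6 TPM) did not differ beyond their spread.

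The 3 tumors were not alike. Compared with the mean of the other 2 tumors, GB344 held 1.71 times the Shmt2, 1.44 times the Phgdh and 1.35 times the Mthfd2, but 0.517 times the Rrm2, 0.624 times the Tk1 and 0.739 times the Rrm2b. Its Rrm1, Tyms and Shmt1 were within 0.988 to 1.11 times. Shmt2, Mthfd2 and Phgdh were thus highest, and Rrm2 and Tk1 lowest, in the same tumor, whereas Psat1, of the step after Phgdh, was lowest there (287 TPM against 411 and 353 TPM). GB344 was also the lowest tumor for 5 of 5 mature granule neuron genes, 5 of 5 Purkinje cell genes, 5 of 5 oligodendrocyte genes and 5 of 6 granule progenitor genes, and the part of these cells in the values was not tested. Mycn, a transcription factor gene of granule progenitors, was at 1133 TPM in that tumor and at 356 and 343.9 TPM in the others. With 1 tumor of each kind, these are values without a test.

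The tumors and the adjacent cerebella came from the same 3 mice, and this comparison shares the tumors with the previous one. Every tumor value was above every adjacent value for 8 of the 9 genes and below for Rrm2b, where 23.7% and 38.9% of the 15845 genes tested did so. The median log2 fold change was 1.48, against -0.14 over all genes. Only 3 genes were called higher (4.76% of all genes were called higher and 18.0% lower): Tyms at 1.48 ± 0.25 (adjusted p 0.00344), Rrm1 at 1.48 ± 0.28 (adjusted p 0.00540) and Shmt1 at 1.997 ± 0.34 (adjusted p 0.00344). With quantile normalization, 7 were called, beside 10.1% of all genes called higher, and 42.2% of all calls were higher, against 20.9% on the deposited scale. With the mouse as a block there were 5, Shmt2 (1.40, adjusted p 0.00247) and Mthfd2 (1.67, adjusted p 0.00777) being added, beside 4.42% of all genes. Rrm2 (2.43 ± 0.76, adjusted p 0.0346) and Tk1 (2.60 ± 0.63, adjusted p 0.0138) had the largest values and the largest errors and were not called. The 3 calls were not stable: without tumor GB344, tumor GB370 or adjacent GB359 none was left, and without tumor GB359 there was 1. Calls over all genes also fell: 2.89%, 1.19%, 1.33% and 1.74% were called higher without these samples, in that order, against 4.76% with all samples.

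**Figure D3:**
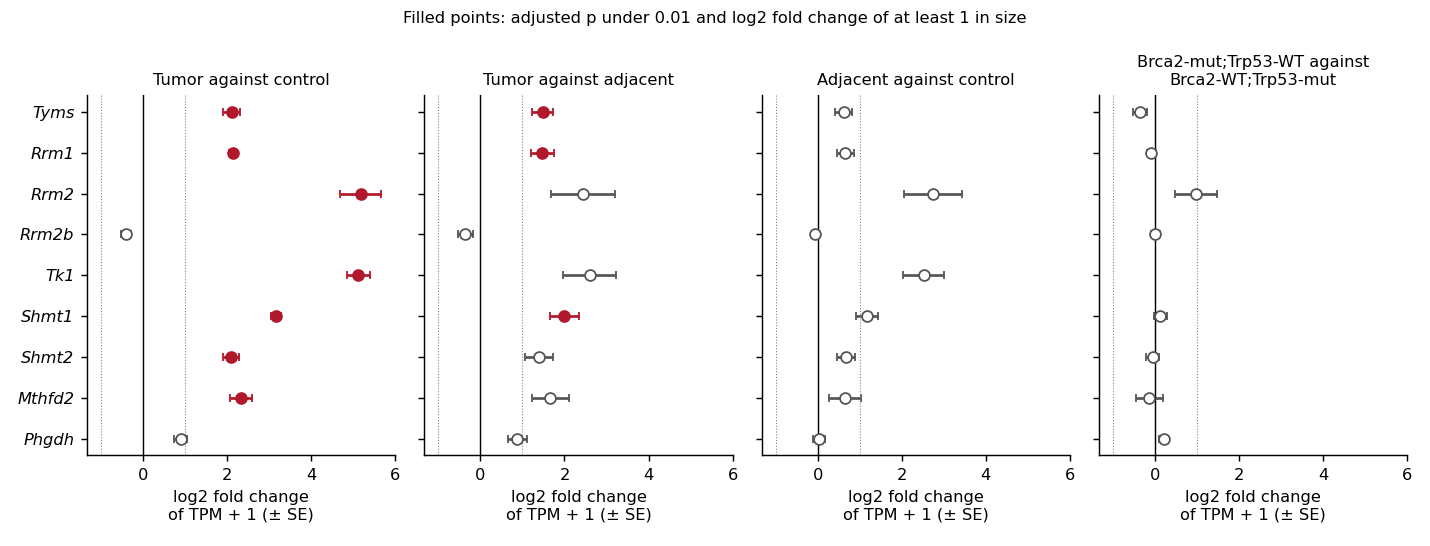
Log2 fold change of TPM + 1 with its standard error for the 9 genes in 4 comparisons, which share samples; filled red points were called and dotted lines mark a size of 1. Calls number 7 for tumor against control and 3 for tumor against adjacent, and none in the other 2 panels; Tk1 was not tested between the control genotypes.

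The adjacent cerebella differed from mouse to mouse. Rrm2 was at 62.8, 37.4 and 6.39 TPM in the adjacent tissue of GB344, GB359 and GB370, and Tk1 was at 21.3, 18.7 and 3.21 TPM. Shmt1 was at 25.6, 19.0 and 9.15 TPM and Rrm1 at 46.0, 36.4 and 20.2 TPM. The sample from GB370 was the lowest of the 3 for 8 of the 9 genes, and for Rrm2b it was the highest.

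Each adjacent value can be placed on a scale from the control mean (0%) to the tumor of the same mouse (100%). For the 7 genes called higher in tumors, the median position was 36.3% in GB344 (23.7% to 67.7%), 21.8% in GB359 (15.2% to 28.3%) and 1.44% in GB370 (-7.03% to 4.48%). The same medians were 41.0%, 23.5% and 1.42% for the 9 proliferation genes and 52.8%, 25.4% and 2.25% for the 6 granule progenitor genes. Atoh1 was at 59.4, 50.5 and 4.997 TPM in the 3 adjacent cerebella and at most at 0.212 TPM in the controls. By their medians, the enzyme genes and both marker lists ranked the 3 mice alike. Among single genes, GB344 was below GB359 for Shmt2 (23.7% and 28.3%) and for Mycn (10.7% and 21.4%). The part of tumor or progenitor cells in the adjacent values was not tested. Phgdh, which was not called in tumors, stood at -0.26% in GB344, 30.5% in GB359 and -39.3% in GB370.

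**Figure D4:**
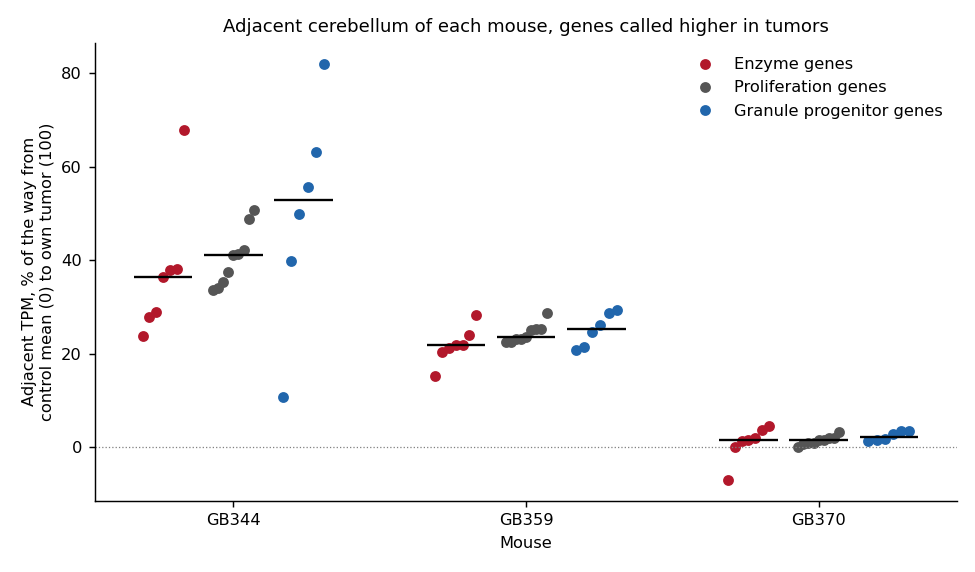
Position of the adjacent cerebellum of each mouse between the mean of 6 controls (0%) and its own tumor (100%), on the TPM scale; points are genes called higher in tumors (7 enzyme genes, 9 proliferation genes, 6 granule progenitor genes) and black lines are medians. The medians of the 3 lists are 36.3 to 52.8% in GB344, 21.8 to 25.4% in GB359 and 1.42 to 2.25% in GB370.

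Against the 6 controls, none of the 9 genes was called in adjacent cerebella. At an unadjusted p under 0.05 there were 6, where 34.5% of all genes passed that limit. Over all 16091 genes, 0.224% were called higher and 0.0124% lower, so that 94.7% of calls were higher (69.5% with quantile normalization). That split rests on few calls: the share was 24.1% against the Brca2-WT;Trp53-mut controls alone and 27.5% without adjacent GB359, and no gene was called without control GB520. Tyms, Tk1 and Shmt1 were higher in all 3 adjacent samples than in every control, as were 11.7% of genes. The values of largest size were 2.74 ± 0.69 for Rrm2 (adjusted p 0.0296), 2.53 ± 0.49 for Tk1 (adjusted p 0.0158) and 1.17 ± 0.25 for Shmt1 (adjusted p 0.0207), and the median over the 9 was 0.66, against 0.07 over all genes. These 3 genes were called when the adjacent sample of GB370 was left out: Rrm2 at 3.66 (adjusted p 0.00252), Tk1 at 3.30 (adjusted p 0.000159) and Shmt1 at 1.57 (adjusted p 0.000308). Over all genes, the number called higher went from 36 to 564 (3.51%) with that sample left out. Tk1 was under 1 TPM in most controls and passed the filter on low values in this comparison only through the adjacent samples. Phgdh was at 84.2, 106 and 69.0 TPM in adjacent tissue, which spans the control range of 71.2 to 100.4 TPM (log2 fold change 0.02 ± 0.14).

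Between the control genotypes, 8 of the 9 genes could be tested and none was called or had an unadjusted p under 0.05, where 20.1% of all genes did; Tk1 reached 1 TPM in too few samples. Calls were rare among all 15575 genes, at 0.0128% higher and 0.0449% lower in Brca2-mut;Trp53-WT. The value of largest size was that of Rrm2, at 0.98 ± 0.50 (adjusted p 0.326), and it fell to 0.32 without GB512. Tyms was lower in every Brca2-mut;Trp53-WT mouse (6.995 to 11.6 TPM) than in every Brca2-WT;Trp53-mut mouse (11.6 to 12.6 TPM), with ranges that nearly touch and a difference of -0.36 ± 0.17 on the log2 scale, with an adjusted p of 0.285. Rrm2 separated the genotypes the other way, at 2.20 to 12.8 TPM in Brca2-mut;Trp53-WT and 1.45 to 2.05 TPM in Brca2-WT;Trp53-mut. Of all genes, 20.3% lay lower and 6.70% higher in every Brca2-mut;Trp53-WT mouse. For the other 6 tested genes the values were between -0.14 and 0.20.

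The neighbouring enzymes of the same routes were read from a list of 56 genes, of which 55 were tested. Of these, 21 were called higher and 3 lower in tumors than in controls, beside 14.4% and 21.5% of all genes. In tumors against adjacent cerebella 16 were called higher and 3 lower, beside 4.76% and 18.0% of all genes. None was called by limma in adjacent against control or between the control genotypes. In those comparisons 25 and 13 had an unadjusted p under 0.05, beside 34.5% and 20.1% of all genes. With 1 sample left out, the 16 became 3 to 13, where 1.19% to 5.76% of all genes were called higher. The median log2 fold change was 0.73 for tumor against control and 0.52 for tumor against adjacent, where all genes had -0.11 and -0.14.

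By route, the calls in tumors against controls were 5 higher of 10 for deoxynucleotide supply, 4 higher of 6 for pyrimidine synthesis, 6 higher and 1 lower of 15 for purine synthesis, 3 higher and 1 lower of 15 tested for the folate cycle, and 3 higher and 1 lower of 9 for serine and glycine. The median log2 fold changes of these routes, in the same order, were 1.14, 1.60, 0.90, 0.37 and 0.24. Over all genes the median was -0.11, with 14.4% called higher and 21.5% lower. Mthfd2l, the isozyme of Mthfd2, was among the 3 higher genes of the folate cycle, at 1.97.

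The steps of serine synthesis after Phgdh differed from each other. Psat1, the aminotransferase of the second step, was at 287, 411 and 353 TPM in tumors and between 79.6 and 115 TPM in controls and was called at 1.83 ± 0.13 (adjusted p 5.27e-07). Psph, the phosphatase of the last step, was at 36.9, 31.1 and 22.8 TPM in tumors and between 22.0 and 26.6 TPM in controls (0.24 ± 0.14, adjusted p 0.139). Of the 3 genes of the route, only Psat1 was called on the deposited scale.

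Among the other neighbours, the largest values for tumor against control were those of Slc1a5, a transporter of glutamine and other neutral amino acids (3.54), Dctd, which turns dCMP into dUMP, the substrate of Tyms (2.49), Cad, which starts pyrimidine synthesis (2.06), and Atic, which ends the purine route to IMP (2.005). In tumor against adjacent they were Slc1a5 (2.46), Dctd (1.69), the uridine-cytidine kinase gene Uck2 (1.53) and the adenine salvage gene Aprt (1.49). The call of Slc1a5 against adjacent tissue was lost without any single one of the 6 samples, that of Psat1 without 5 of them and that of Uck2 without 4. The lower genes were the same 3 in both: Adssl1, a muscle-type adenylosuccinate synthase (-3.36 and -3.37), Aldh1l1, the cytosolic formyltetrahydrofolate dehydrogenase and an astrocyte marker (-2.09 and -1.96), and Amt of the glycine cleavage system (-1.75 and -1.47).

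**Figure D5:**
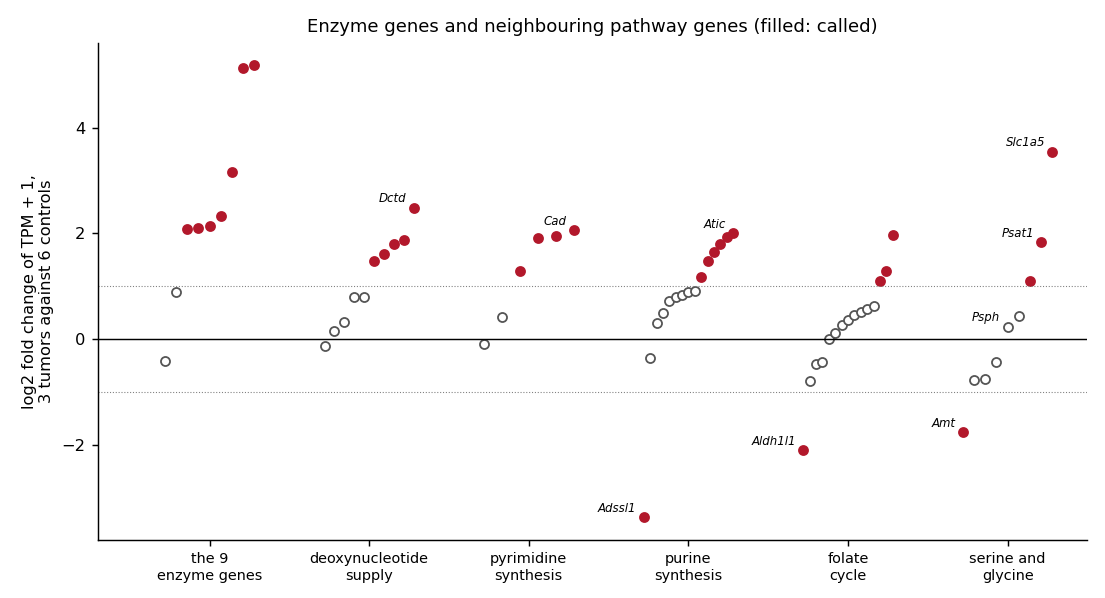
Log2 fold change of TPM + 1, 3 tumors against 6 controls, for the 9 enzyme genes and for 55 neighbouring genes by route; filled points were called and dotted lines mark a size of 1. In each route most called genes lie above 0, and the 3 called lower are Adssl1, Aldh1l1 and Amt.

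Lists tied to known regulators of some of the 9 are given beside the 14.4% of all genes called higher and the 21.5% called lower in tumors. Of 8 other targets of ATF4, a factor that raises Phgdh, Psat1 and Mthfd2 under amino acid shortage, 1 was called higher in tumors than in controls and none lower, with a median of 0.49. Of 9 other p53 targets, 2 were called higher and 2 lower (median 0.29), in a comparison where both the tumors and 3 of the 6 controls were Trp53-mut. Of the 2 called higher, Eda2r passed the filter on low values through the tumors alone. Between the control genotypes, which differ in Brca2 as well as Trp53, none was called. There 5 of the 9 lay higher in every Brca2-mut;Trp53-WT mouse and none lower, beside 6.70% and 20.3% of all genes. The part of Trp53 status was not tested.

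Profiles were compared by the root mean square difference (RMS) of log2(TPM + 1) after centring each gene, where smaller is more alike. Genes were not scaled to the same spread, so the size of a change counts as well as its direction. With this measure, the genes most like each of the 9 were found over the 12 samples among 16498 genes. For Rrm2 they were Foxm1 (0.184), Spc25 (0.189) and Troap (0.270); for Tk1 Mcm6 (0.166), Basp1 (0.180) and Sox11 (0.184); for Tyms Orc1 (0.169), Chsy1 (0.183) and Prim1 (0.189). For Rrm1 they were G3bp1 (0.0776), Topbp1 (0.0812) and Msantd3 (0.0908). For Shmt1 they were Hn1l (0.138) and Trip13 (0.151), and for Shmt2 Btg3 (0.142), Cenpw (0.149) and Evc2 (0.162). Mthfd2 had no close match, the nearest being BC055324 (0.265), Gm15545 (0.287) and Tmpo (0.287). For Phgdh they were Tmem258 (0.114), Ltbr (0.148) and B3glct (0.153), and for Rrm2b Ptrhd1 (0.0674), Alg2 (0.0710) and Ubqln2 (0.0725).

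Among the 9 themselves, the closest pairs were Tyms and Rrm1 (0.243), Rrm1 and Shmt2 (0.249) and Shmt2 and Mthfd2 (0.311). Rrm2 was nearer to Tk1 (0.388) than to its partner subunit Rrm1, which was also called higher in tumors but by a smaller amount. The pair farthest apart was Rrm2 and Rrm2b (2.50).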

How the data were processed

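Poly(A) RNA from 12 samples was sequenced, and TPM were deposited: per the labels and methods, the authors quantified transcripts with Salmon 0.8.1 on mm10 known-gene models and used tximport to sum transcripts per gene. The counts the authors tested with DESeq2 were not used here, and depth is unknown, so no counting error is given. Because Salmon shares reads among similar transcripts, near-identical copies can trade reads. Groups and mice came from the labels. Nothing pairs the controls, and p-values measure the spread between mice, except in tumor against adjacent. There the main fit treated the tumor and adjacent samples of a mouse as independent.

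The values were tested as log2(TPM + 1) in limma 3.58.1 (R 4.3.3; lmFit, eBayes with trend), keeping genes that reached 1 TPM in 3 or more of a comparison's samples, with Benjamini-Hochberg adjustment over all genes tested. The 4 comparisons share samples. The test was checked on simulated data. Ratios of genes were taken as log2 of TPM + 1 and tested by exact permutation (84 splits of 3 against 6). The tumor and adjacent samples of a mouse deviated together (correlations of 0.249, 0.176 and 0.152, each tumor's best partner being its own mouse), so the mouse, given by the labels, served as a block in an alternative fit.

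Named genes were the 9 members, Psat1 and Psph, the 4 called pathway genes of largest change per direction and comparison, and the 3 most alike genes per member; some genes this rule names are not reported here. Mycn, Mthfd2l, Tyms-ps and Eda2r were named after their values were seen. The members and lists were chosen with earlier results of these data known. Alternatives were pseudocounts of 0.1 and 0.01, no filter, a 5 TPM minimum, quantile normalization, median-of-ratios scaling, eBayes without trend, all 4 groups in 1 fit, an adjusted p of 0.05 with no fold minimum, each control genotype alone, the mouse block and leaving out each sample.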

Additional observations from a re-analysis of the deposited data

Results flagged for a closer look

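Of 24 results tested for a sample far from its group, 4 had one, and all 4 were the same control, GB512 (Brca2-mut;Trp53-WT), as the highest of 6. Chance alone marks about 1 in 20, but these 4 are not independent results. The Rrm2 level and both Rrm2 ratios use the same Rrm2 value, and Tk1 was the gene of the 9 nearest to Rrm2. The Rrm2 of GB512 was 12.75 TPM, 6.13 times the mean of the other 5 controls, and its Tk1 was 2.873 TPM, 3.20 times that mean. Its log2 ratio of Rrm2 to Rrm2b was -0.03052 and that of Rrm2 to Rrm1 was -0.7183. Tyms (9.50 TPM), Rrm1 (21.6 TPM) and Shmt1 (7.65 TPM) lay inside the range of the other 5, while Phgdh (100.4 TPM) was above it and Rrm2b (13.05 TPM) below. GB512 was the lowest of the 6 controls for 5 of 5 oligodendrocyte genes and the highest for 4 of 5 microglia and macrophage genes and 9 of 9 proliferation genes. The 9 proliferation genes summed to 174.8 TPM in this sample and to 108.3 to 124.1 TPM in the others, while the 6 granule progenitor genes summed to 41.59 TPM, within their 41.16 to 45.5 TPM. What these values share was not tested. Without GB512, 7 genes were still called higher in tumors.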

How the results depend on the processing

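For tumor against control, the count of 7 genes called higher was 7 or 8 under every alternative run; with an adjusted p of 0.05 and no fold minimum, Rrm2b became 1 gene lower, and the neighbouring genes came to 38 higher and 10 lower (31.8% and 39.5% of all genes). For tumor against adjacent, the count of 3 became 6 with median-of-ratios scaling, 7 with quantile normalization, 6 with all 4 groups in 1 fit, 5 with the mouse as a block and 8 at the looser limit, where the neighbours came to 30 higher and 6 lower (18.1% and 32.2% of all genes). The shares of all genes called higher were 8.18% (median-of-ratios), 10.1% (quantile), 8.07% (all groups in 1 fit) and 4.42% (block), against 4.76% in the main fit. The block changed the count of the 9 genes by over 1.5 times in that comparison alone, the sole one with pairs. In that comparison scaling also moved the median of all genes from -0.14 to 0.02 (median-of-ratios) or 0.12 (quantile), and the share of higher among called genes from 20.9% to 34.4% and 42.2%. For adjacent against control, the looser limit gave 3 of the 9 higher, and 13 neighbours higher and 1 lower (10.1% and 5.57% of all genes).

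Leaving out 1 sample gave 7 to 8, 0 to 4 and 0 to 3 of the 9 higher in those 3 comparisons, and 19 to 21, 3 to 13 and 0 to 2 neighbours. Neighbours in tumor against adjacent numbered 8, 9, 3 and 4 without tumors GB344, GB359 and GB370 and adjacent GB359. Of all genes, 2.89%, 1.74%, 1.19% and 1.33% were called higher without these samples, in the same order. The log2 ratio differences ranged from 5.39 to 5.97 (Rrm2 to Rrm2b), -1.29 to -0.89 (Shmt2 to Shmt1) and 2.78 to 3.38 (Rrm2 to Rrm1), and 2 tumors against 6 controls cannot go below an exact permutation p of 0.0714.

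Signs turned only for values near 0 that were never called. For adjacent against control, Phgdh was -0.0500 with median-of-ratios scaling, -0.0158 with quantile normalization, -0.0795 against the Brca2-mut;Trp53-WT controls alone and -0.137 to 0.172 with 1 sample left out. Between control genotypes, with median-of-ratios scaling and quantile normalization, Shmt2 was 0.0285 and 0.0348, and Rrm1 was 0.0109 with the latter; with 1 sample left out, Shmt2 ranged from -0.211 to 0.0758, Rrm2b from -0.0718 to 0.0613 and Mthfd2 from -0.365 to 0.175. The causes were not tested.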
